A study of Mus musculus with 7 samples.

Results

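The intercalated disc junction genes described here are 10 genes picked by name from the FPKM table of a mouse myocardial infarction (MI) study. Their measured values were not used as a rule for the choice, but earlier results of these data were known. They encode gap junction channels (Gja1, Gjc1), desmosome proteins (Dsp, Jup, Pkp2, Dsg2, Dsc2), adherens junction proteins (Cdh2, Ctnna3) and the zonula occludens scaffold ZO-1 (Tjp1). All 10 were among the 56980 genes of the table, and all 10 were among the 11431 genes that reached an FPKM of 1 in 3 or more mice, which were the genes tested. FPKM counts the sequenced fragments of a gene and divides them by gene length and library size, so levels can be set side by side between genes.

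Myocardial tissue was taken from 7 wild-type male C57BL/6J mice, an inbred strain, that were obtained when 8 weeks old. In 3 MI mice the left coronary artery was ligated, and 4 sham-operated mice underwent the operation without ligation. Tissue was collected 4 days after surgery, and total RNA from each mouse gave 1 library. The study calls the tissue of the MI mice ischemic, without saying how it was dissected.

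The intercalated disc is the end-to-end contact between cardiomyocytes. Desmosomes there tie the intermediate filaments of neighbouring cells together, adherens junctions tie their actin filaments, and gap junctions let the electrical impulse pass from cell to cell. In the heart these contacts are mixed, and mutations of several desmosome genes are a known cause of arrhythmogenic cardiomyopathy. After infarction, a changed amount and place of the gap junction protein Cx43 is a long-studied feature of the surviving muscle.

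No junction gene passed an adjusted p of 0.05 between MI and sham-operated mice, where 0.0175% of all genes tested passed as higher in MI and 0.00875% as lower. At an unadjusted p under 0.05, Pkp2 was higher in the MI mice (29.5% of all genes tested were), Dsc2 and Dsg2 were lower (9.85% were), and the other 7 did not pass. These counts changed with the scaling, as given in the last section. With voom weights on the fragments recovered from the FPKM values, 0 of the 10 passed an adjusted p of 0.05 as well. Every MI mouse lay above every sham-operated mouse for Pkp2 and Tjp1 (16.1% of all genes tested) and below every sham-operated mouse for Dsc2 and Cdh2 (9% of all genes tested). The median difference of the 10 genes was -0.20 on the log2(FPKM + 1) scale (4 higher, 6 lower), and the median of all genes tested was 0.21, with 73% of them higher in MI.

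The libraries held 19977713 to 23610874 fragments, and the ranges of the groups overlapped. MI replicate 2 stood near the sham-operated mice. Its summed FPKM of 15 cardiomyocyte markers was 17779, against 17879 to 19024 in the sham-operated mice and 11660 and 12708 in MI replicates 1 and 3. Mitochondrial genes held 28.2% of its fragments, against 26.5% to 27.4% in the sham-operated mice and 13.6% and 14.9% in MI replicates 1 and 3. Results are therefore also given without it. The tissue label was checked against the cardiomyocyte markers, and 15 of 15 passed the filter.

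The sequence just before the transcription start is shown for the 4 junction genes that have a single start in the RefSeq promoter table (build GRCm38.p6) and lie on the chromosomes used for sequence here, so that the members can be set side by side on a property that FPKM does not hold. Each line is the 250 bases before the start, 5′ to 3′ on the strand of the gene. Capitals mark matches, on either strand, to 6 motifs. They are the GATA motif in the form GATAA, the TATA box in the form TATAAA, and the GC box with the letters GGGCGG. The AP-1 motif was searched for as TGANTCA, the MEF2 motif was searched for as TATTTNTA, and the last was the CCAAT box. A match is a description of the letters and says nothing of a factor's binding.
Gja1, chr10:56377050-56377299, plus strand: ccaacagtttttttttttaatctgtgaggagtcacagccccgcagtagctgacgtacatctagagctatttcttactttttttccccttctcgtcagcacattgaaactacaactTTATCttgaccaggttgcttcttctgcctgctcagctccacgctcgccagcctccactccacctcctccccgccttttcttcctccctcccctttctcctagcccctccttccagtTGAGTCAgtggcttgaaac
Dsp, chr13:38151044-38151293, plus strand: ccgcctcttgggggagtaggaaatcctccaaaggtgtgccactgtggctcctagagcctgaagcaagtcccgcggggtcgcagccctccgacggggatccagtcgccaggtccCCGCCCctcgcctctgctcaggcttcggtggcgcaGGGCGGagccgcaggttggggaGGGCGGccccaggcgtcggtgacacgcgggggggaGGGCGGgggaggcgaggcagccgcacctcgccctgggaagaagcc
Jup, chr11:100397791-100398040, minus strand: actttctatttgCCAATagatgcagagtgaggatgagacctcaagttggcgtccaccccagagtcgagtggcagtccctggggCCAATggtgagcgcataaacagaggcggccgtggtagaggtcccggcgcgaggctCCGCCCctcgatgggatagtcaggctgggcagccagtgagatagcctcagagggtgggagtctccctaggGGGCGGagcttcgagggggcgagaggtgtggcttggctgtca
Tjp1, chr7:65371245-65371494, minus strand: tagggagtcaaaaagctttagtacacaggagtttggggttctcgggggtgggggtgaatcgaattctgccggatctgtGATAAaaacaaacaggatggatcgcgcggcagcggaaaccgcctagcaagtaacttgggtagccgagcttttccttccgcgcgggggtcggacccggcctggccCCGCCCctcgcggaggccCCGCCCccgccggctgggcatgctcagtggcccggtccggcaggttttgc
The Gja1 window held 50% G or C and no GC box, and the other windows held 72.4% (Dsp), 62% (Jup) and 63.2% (Tjp1), where the median of 32851 promoters was 52.4% and the 5th to 95th percentiles were 34.8% to 73.6%. An AP-1 match, which 6.75% of promoters held in a window of this length, began 19 bases before the Gja1 start. GC boxes, held by 32.7% of promoters, were found 4 times before Dsp and 2 times each before Jup and Tjp1. The CCAAT box (33.8% of promoters) was found 2 times before Jup, and the GATA motif (22.6%) once each before Gja1 and Tjp1. The TATA box (12.4%) and the MEF2 motif (5.44%) had no match in the 4 windows, and no matches shared a base. The Tjp1 window lay inside the GENCODE span of the gene, and no exon of the annotation overlapped it.

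Levels are given below as FPKM for sham replicates 1 to 4 and then MI replicates 1 to 3. Positions are those of GENCODE M21 on GRCm38.

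Gja1 (ENSMUSG00000050953, chr10:56377330-56402513, plus strand) encodes Cx43, the main gap junction protein of the working ventricle. It stood at 43.0, 22.9, 23.0 and 19.9 FPKM in the sham-operated mice and at 11.7, 14.4 and 22.1 in the MI mice, from 2965 to 11187 fragments per mouse. Sham replicate 1 was far above the other sham-operated mice. MI replicates 1 and 2 lay below every sham-operated mouse, and MI replicate 3 lay within their range, so the groups overlapped. The means were 27.2 ± 10.6 (SD, n = 4) and 16.1 ± 5.39 (SD, n = 3). The difference, MI minus sham, was -0.70 on the log2(FPKM + 1) scale (standard error 0.30, limma adjusted p 0.128). Without sham replicate 1 it was -0.47 (adjusted p 0.215).

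Gjc1 (ENSMUSG00000034520, chr11:102799579-102819700, minus strand) encodes Cx45, which in the adult heart is best known from the conduction system. Its FPKM was 3.63, 3.55, 3.68 and 3.28 in the sham-operated mice and 5.95, 3.19 and 5.64 in the MI mice, from 413 to 840 fragments. MI replicates 1 and 3 lay above every sham-operated mouse, and MI replicate 2 lay below every one. The means were 3.53 ± 0.177 (SD, n = 4) and 4.93 ± 1.51 (SD, n = 3), a difference of 0.35 on the log2 scale (standard error 0.18, adjusted p 0.168). Without MI replicate 1 it was 0.22.

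**Figure D1:**
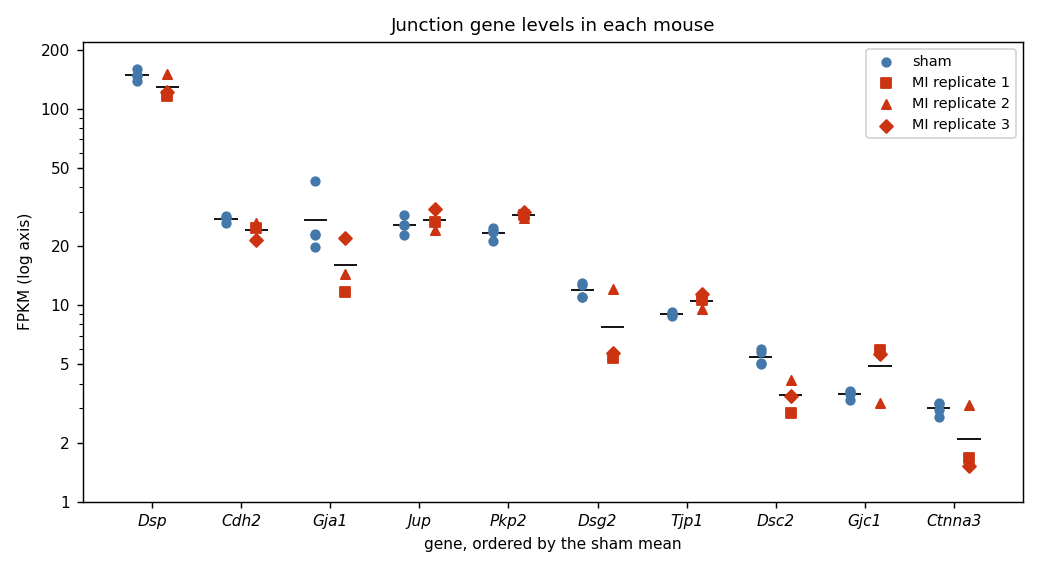
FPKM (log axis) of the 10 junction genes in each of the 4 sham-operated mice (circles) and 3 MI mice (square, triangle and diamond for replicates 1 to 3), with a bar at each group mean. Dsp lies highest in both groups, sham replicate 1 stands alone at 43.0 for Gja1, and MI replicate 2 lies among the sham-operated mice for Dsp, Jup, Dsg2 and Ctnna3.

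Dsp (ENSMUSG00000054889, chr13:38151294-38198577, plus strand) encodes desmoplakin, which links the desmosomal plaque to desmin filaments. It was the most abundant of the 10 genes, at 139.5, 147, 159 and 149.6 FPKM in the sham-operated mice and 116, 151 and 122 in the MI mice, from 27257 to 40295 fragments. MI replicates 1 and 3 were below every sham-operated mouse, and MI replicate 2 was within the sham range. The means were 149 ± 8.16 (SD, n = 4) and 129.5 ± 18.4 (SD, n = 3), and the log2 difference was -0.21 (standard error 0.13, adjusted p 0.231) and, without MI replicate 1, -0.13. Dsp shares 499 exon bases with Gm10129 on the opposite strand, and whether counting used the strand is not given in the sources used here.

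Jup (ENSMUSG00000001552, chr11:100368958-100397763, minus strand) encodes plakoglobin, a plaque protein found in both desmosomes and adherens junctions. It was at 25.6, 28.8, 25.5 and 22.9 FPKM in the sham-operated mice and at 26.4, 24.1 and 31.1 in the MI mice, from 4277 to 6868 fragments. The groups overlapped, with only MI replicate 3 above the sham range. The log2 difference was 0.077 (95% interval -0.21 to 0.37, adjusted p 0.633) on means of 25.7 ± 2.43 (SD) and 27.2 ± 3.56 (SD). It was -0.020 without MI replicate 3, 0.025 without sham replicate 4 and 0.13 without sham replicate 2.

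Pkp2 (ENSMUSG00000041957, chr16:16213318-16272712, plus strand) encodes plakophilin 2, the plakophilin of the cardiac desmosome. Its FPKM was 23.5, 24.6, 24.0 and 21.2 in the sham-operated mice and 28.7, 27.7 and 29.8 in the MI mice, from 2593 to 4305 fragments. The 3 MI mice were close together, and all of them, MI replicate 2 included, were above the highest sham-operated mouse. The means were 23.4 ± 1.48 (SD, n = 4) and 28.8 ± 1.05 (SD, n = 3). The log2 difference was 0.29 (standard error 0.092, unadjusted limma p 0.0151, adjusted p 0.108).

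Dsg2 (ENSMUSG00000044393, chr18:20558074-20604521, plus strand) encodes desmoglein 2, a desmosomal cadherin. It was listed at 10.98, 11.1, 12.7 and 12.9 FPKM in the sham-operated mice and at 5.37, 12.1 and 5.73 in the MI mice, from 1038 to 2644 fragments. MI replicates 1 and 3 were far below the sham range, and MI replicate 2 was inside it. Means of 11.9 ± 1.03 (SD, n = 4) and 7.75 ± 3.81 (SD, n = 3) gave a log2 difference of -0.64 (standard error 0.25, unadjusted limma p 0.0357, adjusted p 0.115). Dsg2 shares 330 exon bases with Gm16090 on the opposite strand. No exon of another gene overlapped the exons of the remaining 8 members in the annotation.

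Dsc2 (ENSMUSG00000024331, chr18:20030633-20059554, minus strand) encodes desmocollin 2, the partner cadherin of desmoglein 2. The FPKM values were 5.07, 5.99, 5.77 and 5.01 in the sham-operated mice and 2.85, 4.16 and 3.45 in the MI mice, from 513 to 1121 fragments. All 3 MI mice were below the lowest sham-operated mouse. The means were 5.46 ± 0.494 (SD, n = 4) and 3.48 ± 0.656 (SD, n = 3). The log2 difference was -0.53 (standard error 0.13), and its unadjusted limma p of 0.00337 was the smallest of the 10 genes (adjusted p 0.108).

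Cdh2 (ENSMUSG00000024304, chr18:16588877-16809246, minus strand) encodes N-cadherin, the classical cadherin of the intercalated disc. It stood at 26.3, 27.9, 27.9 and 28.4 FPKM in the sham-operated mice and at 24.8, 26.2 and 21.6 in the MI mice, from 4912 to 6304 fragments. The MI mice were all below the sham-operated mice, MI replicate 2 by a narrow margin. Means of 27.6 ± 0.879 (SD, n = 4) and 24.2 ± 2.36 (SD, n = 3) gave a log2 difference of -0.19 (standard error 0.098, adjusted p 0.177). Without MI replicate 3 it was -0.11.

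Ctnna3 (ENSMUSG00000060843, chr10:63430098-65003667, plus strand) encodes alpha-T-catenin, an actin-binding catenin of heart and testis. With 287 to 599 fragments it was the least abundant of the 10 genes, at 2.93, 3.16, 3.18 and 2.70 FPKM in the sham-operated mice and 1.67, 3.11 and 1.51 in the MI mice. MI replicates 1 and 3 were below the sham range, and MI replicate 2 was inside it. Its means were 2.99 ± 0.222 (SD, n = 4) and 2.10 ± 0.878 (SD, n = 3), and the log2 difference was -0.40 (standard error 0.18, adjusted p 0.131).

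Tjp1 (ENSMUSG00000030516, chr7:65296165-65527781, minus strand) encodes ZO-1, a scaffold that binds Cx43 and tight junction proteins and is also made by endothelial and epithelial cells. Its FPKM was 9.01, 8.84, 9.25 and 9.00 in the sham-operated mice and 10.6, 9.64 and 11.4 in the MI mice, from 1914 to 2858 fragments. The sham-operated mice were nearly alike, and all 3 MI mice were above them. Means of 9.02 ± 0.167 (SD, n = 4) and 10.5 ± 0.869 (SD, n = 3) gave a log2 difference of 0.20 (standard error 0.088, adjusted p 0.131).

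**Figure D2:**
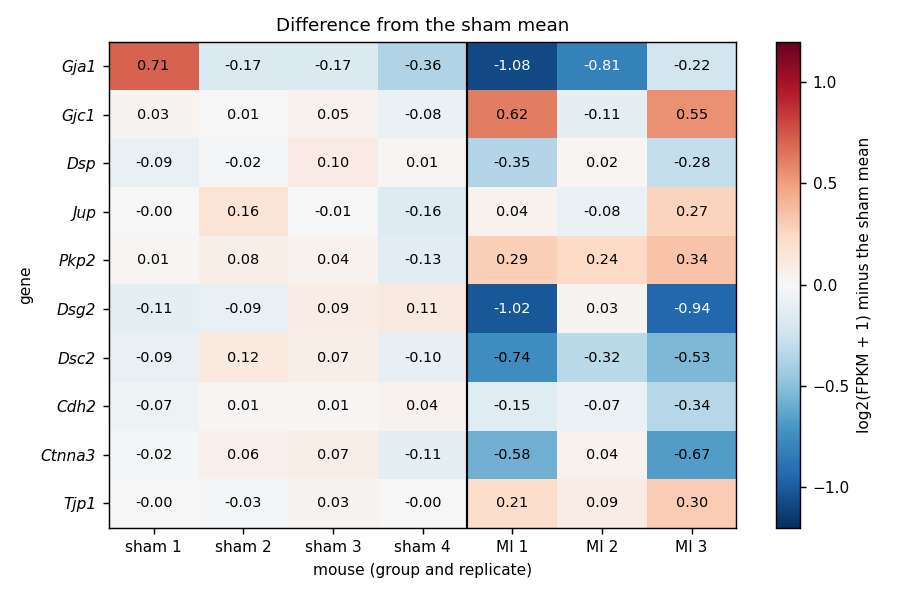
Difference of log2(FPKM + 1) from the sham mean for each junction gene (rows) in each mouse (columns), with red above and blue below the sham mean and the value written in each cell. MI replicates 1 and 3 are alike for Dsg2 (-1.02 and -0.94) and Ctnna3 (-0.58 and -0.67), where MI replicate 2 is at 0.028 and 0.043, and all 3 MI mice are above 0.2 for Pkp2.

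The order of levels between genes is that of the deposited FPKM and rests on the gene lengths behind it. In the sham-operated mice the order of the mean levels was Dsp (149 FPKM), Cdh2 (27.6), Gja1 (27.2), Jup (25.7), Pkp2 (23.4), Dsg2 (11.9), Tjp1 (9.02), Dsc2 (5.46), Gjc1 (3.53) and Ctnna3 (2.99). Among Cdh2, Gja1, Jup and Pkp2 the range of each overlapped that of the next of these, and all other neighbours had separate ranges. In the MI mice Dsp was again first (129.5 FPKM), followed by Pkp2 (28.8), Jup (27.2), Cdh2 (24.2) and Gja1 (16.1). Dsp was separate from Pkp2, and Pkp2, Jup, Cdh2 and Gja1 each overlapped the next of these. Then came Tjp1 (10.5), Dsg2 (7.75), Gjc1 (4.93), Dsc2 (3.48) and Ctnna3 (2.10), where each neighbour overlapped the next, while Gja1 and Tjp1 did not overlap. With the exon lengths of GENCODE M21 instead, chosen after seeing the data, Jup came second in both groups, at 37.3 FPKM in the sham-operated mice (overlapping Cdh2 at 33.0) and 39.5 in the MI mice (separate from Pkp2 at 32.8). Dsg2 (12.8) and Tjp1 (12.3) then overlapped among sham-operated animals. Among MI animals the overlapping neighbours were then Gja1 with Tjp1, Dsg2 with Gjc1 and Gjc1 with Dsc2, and all others were separate. The other 9 genes kept their order among themselves in each group. The summed FPKM of the 10 genes was 275 to 294 in the sham-operated mice and 234, 275 and 254 in MI replicates 1 to 3.

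Without MI replicate 2, which leaves 2 MI mice against 4, limma called 8 of the 10 genes at an adjusted p under 0.05, 3 higher and 5 lower. In that fit 57% of all genes tested passed as higher and 14.7% as lower, so most of the table passed with them. MI replicate 2 was singled out by its own expression values, which stood near those of the sham-operated mice. Leaving a mouse out on that ground can widen differences and narrow the spread, so the p-values of this fit are descriptive only. The higher genes were Gjc1 (log2 difference 0.58, adjusted p 0.00018), Pkp2 (0.32, adjusted p 0.00639) and Tjp1 (0.26, adjusted p 0.00473). Among the lower genes, Dsg2 was at -0.98 (adjusted p 7.32e-05), Dsc2 at -0.64 (adjusted p 0.000823) and Ctnna3 at -0.62 (adjusted p 0.0003). Dsp was at -0.32 (adjusted p 0.00467) and Cdh2 at -0.24 (adjusted p 0.0178). Gja1 (-0.65, adjusted p 0.127) and Jup (0.16, adjusted p 0.213) did not pass. Both remaining MI mice were above every sham-operated mouse for Gjc1, Pkp2 and Tjp1 (61.9% of all genes tested) and below for Dsp, Dsg2, Dsc2, Cdh2 and Ctnna3 (16.9%). With limma's sample weights, whose estimation stopped before convergence and gave MI replicate 3 most of the weight, 4 members passed as higher (66.8% of all genes tested) and 5 as lower (20.3%). In MI replicate 2 itself, Gja1, Gjc1, Dsc2 and Cdh2 were below every sham-operated mouse (30.2% of all genes tested) and Pkp2 and Tjp1 above every one (20.4%).

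Because the tissue is a mixture, fewer cardiomyocytes and less RNA per cardiomyocyte cannot be told apart in these values. Of the 15 cardiomyocyte markers, 14 were lower in MI, where 73% of all genes tested were higher. Of the 14, 8 passed an unadjusted p of 0.05, as 9.85% of the genes tested did in this direction, and 0 an adjusted p of 0.05. The median log2 difference of all 15 was -0.53, and none was at 0. When each mouse was scaled by the median log-ratio of these markers, the log2 difference of the median gene was 0.64. No member passed an adjusted p of 0.05, and neither did any other gene tested. On that scale the differences of Dsc2 (-0.096), Ctnna3 (-0.031), Dsg2 (-0.16) and Gja1 (-0.19) were smaller than their standard errors of 0.19 to 0.35. Pkp2 was at 0.81 (adjusted p 0.0933), Tjp1 at 0.70 (adjusted p 0.0933), Gjc1 at 0.81 (adjusted p 0.0970) and Jup at 0.60 (adjusted p 0.101). Pkp2 and Tjp1 were above every sham-operated mouse here as well (23.6% of all genes tested), and no member was below (1.42%).

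Scaling by the median log-ratio of all genes brought the median gene to 0.0036 and moved the members the other way. Gja1 was then at -0.96 (adjusted p 0.0977), Dsg2 at -0.88, Dsc2 at -0.74 (adjusted p 0.0970), Ctnna3 at -0.57, Dsp at -0.48 and Cdh2 at -0.45. Pkp2 was at 0.027, Tjp1 at -0.047, Gjc1 at 0.13 and Jup at -0.19. Gja1 and Dsc2 were below every sham-operated mouse (13.5% of all genes tested) and no member was above (13.7%). The same was found with mitochondrial genes left out (10.7% of genes tested below and 16.7% above) and with quantile normalization (16.6% and 11%). With the values of every mouse brought to 1 common total (TPM), Dsc2 alone was below (5.57%) and Pkp2 and Tjp1 were above (16.5%). Over 20 settings Gja1, Dsg2, Dsc2 and Ctnna3 had a negative difference in each, and Gjc1 and Pkp2 a positive one in each. The sign for Dsp, Cdh2, Jup and Tjp1 depended on the scaling or, for Jup, also on 1 mouse. These settings were not independent. No filter, a filter on the mean and limma without trend give the differences of the reported fit by construction. The replicate block gives those without sham replicate 4.

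**Figure D3:**
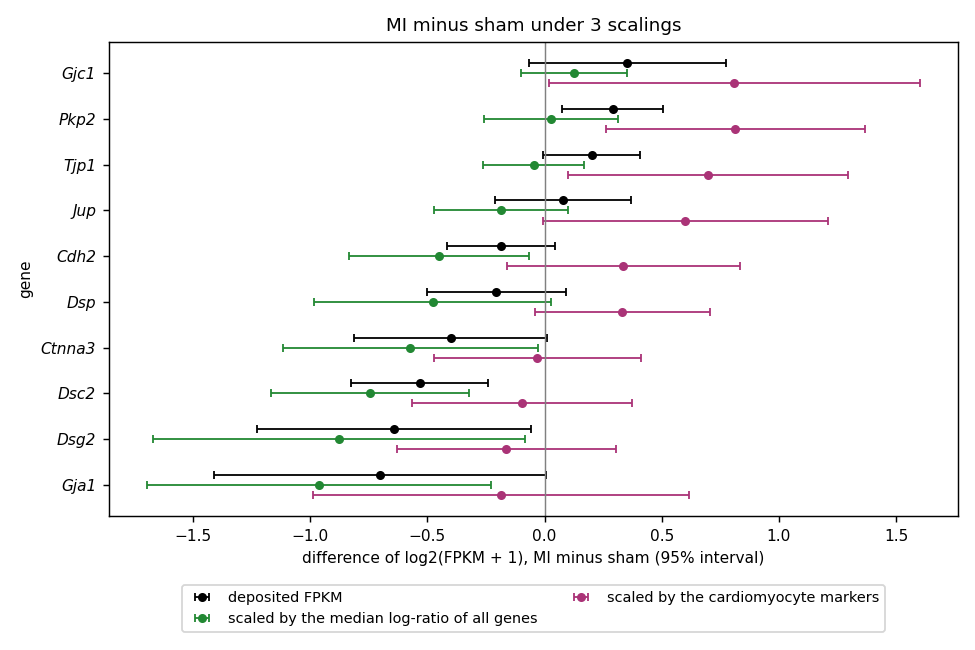
Difference of log2(FPKM + 1), MI minus sham, with its 95% interval from limma, for each junction gene under the deposited FPKM (black), scaling by the median log-ratio of all genes (green) and scaling by the cardiomyocyte markers (purple). Gja1, Dsg2, Dsc2 and Ctnna3 lie left of 0 and Gjc1 and Pkp2 right of 0 under each of the 3, and Dsp and Cdh2 change side with the cardiomyocyte markers, Jup and Tjp1 with the median log-ratio.

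Differences between related junction genes inside a mouse do not move with the scale of that mouse, apart from the added 1. For 6 pairs they were compared by an exact two-sided permutation test, for which 3 mice against 4 cannot give a p below 0.0571, and adjusted over the 6 pairs, of which 5 are reported. Gjc1 minus Gja1 was -3.25, -2.39, -2.36 and -2.29 in the sham-operated mice and -0.87, -1.88 and -1.80 in the MI mice on the log2(FPKM + 1) scale. All 3 MI mice, MI replicate 2 included, exceeded the highest sham-operated mouse, so that Cx45 transcript was higher relative to Cx43 transcript by 1.06 (exact p 0.0571, adjusted p 0.171). Without sham replicate 1 the difference was 0.83.

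Cdh11, a cadherin of mesenchymal cells, minus Cdh2 was -4.33, -4.42, -4.25 and -4.38 in the sham-operated mice and -1.76, -3.98 and -1.93 in the MI mice. The MI mice were again all above, by 1.79 on average (exact p 0.0571, adjusted p 0.171), and by 2.78 with an offset of 0.1 in place of 1. Cdh11 itself did not pass the filter and was below an FPKM of 1 in every sham-operated mouse, at 0.355, 0.348, 0.522 and 0.409 FPKM against 6.64, 0.721 and 4.93. Ctnna1, the widely expressed alpha-E-catenin, minus Ctnna3 was 3.93 to 4.28 in the sham-operated mice and 4.48, 4.01 and 4.74 in the MI mice, a difference of 0.36 with overlap (exact p 0.114, adjusted p 0.229). It was 0.19 without MI replicate 3 and 0.56 without MI replicate 2.

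Of the remaining pairs, both that are reported overlapped and had an exact p of at least 0.4. Pkp4 minus Pkp2 differed by -0.092 between MI and sham (SD 0.14 among sham-operated and 0.21 among MI mice). The difference was 0.11 for Dsc2 minus Dsg2 (SD 0.17 and 0.40). For the 2 desmosomal cadherins, MI replicate 2 was below the sham range at -1.35 and MI replicates 1 and 3 above it at -0.73 and -0.60.

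**Figure D4:**
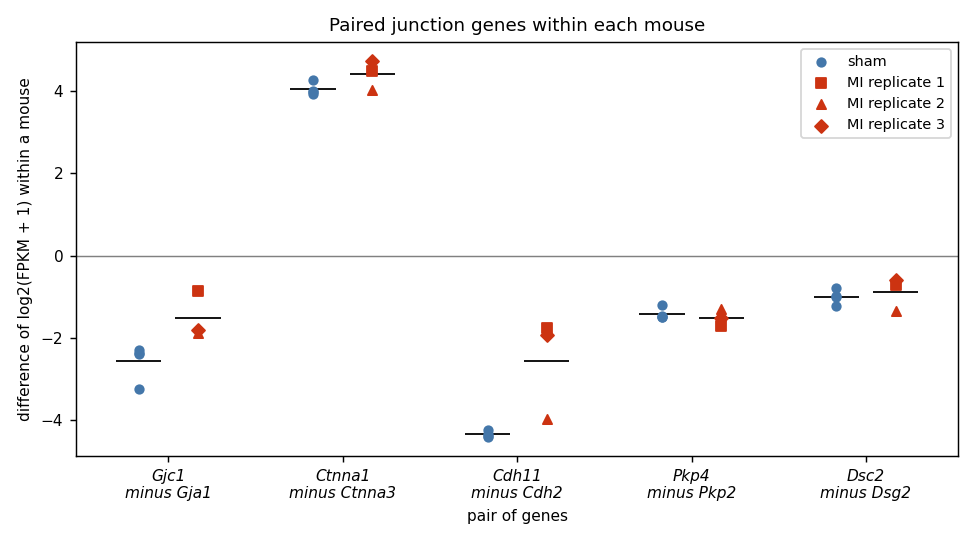
Difference of log2(FPKM + 1) between the genes of 5 pairs within each of 4 sham-operated mice (circles) and 3 MI mice (square, triangle and diamond for replicates 1 to 3), with a bar at each group mean. The MI mice lie above the sham-operated mice for Gjc1 minus Gja1 and for Cdh11 minus Cdh2, and the groups overlap for the other 3 pairs.

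Among 21 other connexins and pannexins, 3 passed the filter. Gja3 (Cx46) stood at 6.74, 6.53, 7.10 and 6.99 FPKM in the sham-operated mice and 4.14, 5.49 and 4.68 in the MI mice, all 3 below (log2 difference -0.45, adjusted p 0.108). Gja4 (Cx37), a connexin of arterial endothelium, was at 5.42, 5.66, 5.34 and 6.42 against 15.9, 6.29 and 14.1, with overlap (0.88, adjusted p 0.108). Gja5 (Cx40), a connexin of atrium and conduction system, had a difference of 0.34 (adjusted p 0.122) and was chosen for mention after its values were seen. Gjd2 and Gje1 were listed at 0 in every mouse. Gjb5, an epithelial connexin also noted after its values were seen, had a listed value of 0 in all 4 sham-operated mice and FPKM values of 3.28, 0.282 and 1.60 in the 3 MI mice.

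Of 14 other desmosome and intermediate filament genes, 4 passed the filter. Des, the desmin filament that desmosomes anchor, was at 389, 383, 392 and 360.3 FPKM in the sham-operated mice and 724, 402 and 860 in the MI mice, all above (log2 difference 0.72, adjusted p 0.109). Tmem43, a membrane protein whose mutation causes a form of arrhythmogenic cardiomyopathy, was at 5.54, 5.56, 4.89 and 5.29 against 17.1, 6.45 and 15.5, all above (1.05, adjusted p 0.108). Perp, a desmosome membrane protein, did not pass (-0.081, adjusted p 0.524). The epidermal desmogleins Dsg1b and Dsg3 were listed at 0 in every mouse.

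Of 17 other catenins and adherens junction adaptors, 13 passed the filter (median log2 difference 0.20), and 1 was higher and 1 lower at an unadjusted p under 0.05 (29.5% and 9.85% of all genes tested were). The groups of all 13 overlapped, where 16.1% of all genes tested had every MI mouse above and 9% every MI mouse below. Ctnna1 (-0.041, adjusted p 0.758) and Ctnnb1 (beta-catenin, 0.14, adjusted p 0.630) had the highest levels in the sham-operated mice. Nectin1 (0.51, adjusted p 0.130) and Lmo7, an adaptor of afadin and alpha-actinin (-0.41, adjusted p 0.120), had the largest differences. Lmo7 was at 16.2 to 18.2 FPKM in the sham-operated mice and 10.4, 17.3 and 11.5 in the MI mice, with MI replicate 2 inside the sham range. Of 20 other cadherins 3 passed, and Cdh5 of endothelium (0.059), Cdh13 (0.076) and Cdh19 (0.088) did not pass the test and overlapped.

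Of 21 tight junction and zonula genes 12 passed the filter, 3 being higher and 1 lower at an unadjusted p under 0.05, shares near the 29.5% and 9.85% of all genes tested. Cldn5, the endothelial claudin (0.49, adjusted p 0.182), and F11r (0.45, adjusted p 0.108) had the highest sham levels, and Cldn15 (1.13, adjusted p 0.108) and Marveld1 (0.71, adjusted p 0.109) the largest differences. The MI mice all exceeded the sham-operated mice for F11r and Cldn15, and all were below them for Magi3, a scaffold named after its values were seen, at 5.66 to 6.82 FPKM against 3.36, 3.45 and 3.32 (-0.68, adjusted p 0.0883). Tjp1 had a difference (0.20) near the median of this list (0.24).

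Of 20 channels and scaffolds of the disc 19 passed the filter, and 14 were lower in MI (median log2 difference -0.24, where the median of the 10 junction genes was -0.20). At an unadjusted p under 0.05, 8 were lower (9.85% of all genes tested were) and 2 higher (29.5% were), and 9 had every MI mouse below every sham-operated mouse (9% of all genes tested). Scn4b, a sodium channel beta subunit, was at 15.5, 11.2, 8.95 and 12.3 FPKM in the sham-operated mice and 1.95, 8.24 and 1.73 in the MI mice (-1.60, adjusted p 0.108). Fhl2 (-0.56, adjusted p 0.108) had the highest sham level, with all MI mice below, and Nrap (-0.13, adjusted p 0.431) was next. No gene in any of the 6 lists reached an adjusted p under 0.05 in the comparison of all mice. Without MI replicate 2, 22 of the 54 did so as higher and 13 of the 54 as lower, where 57% and 14.7% of all genes tested did.

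**Figure D5:**
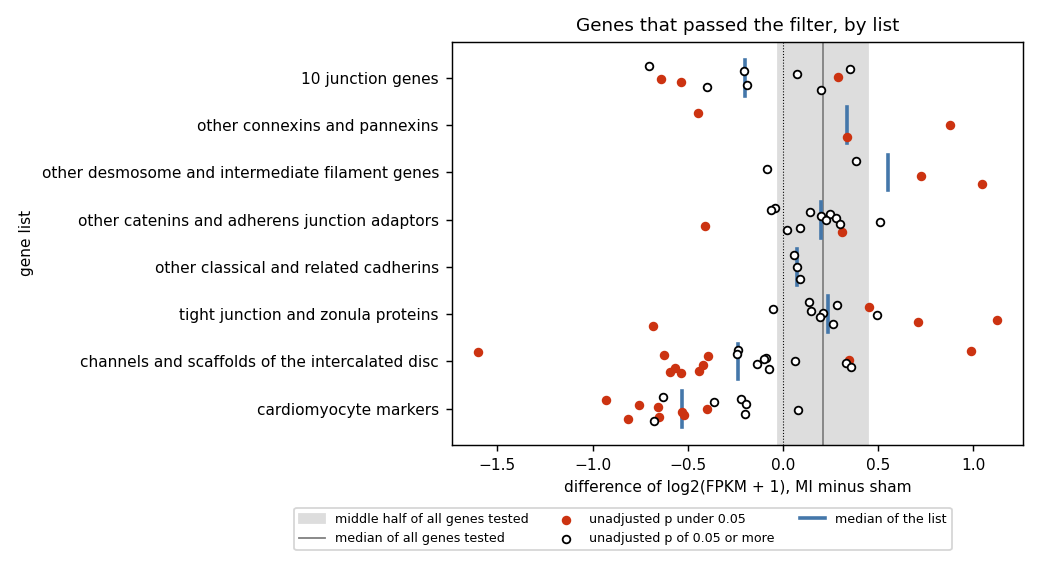
Difference of log2(FPKM + 1), MI minus sham, for every gene that passed the filter in the 10 junction genes, the 6 other junction lists and the cardiomyocyte markers, with filled points for an unadjusted p under 0.05 and a bar at each list's median. The grey line is the median of all genes tested (0.21), and the medians of the 10 junction genes (-0.20), the channels and scaffolds (-0.24), the cardiomyocyte markers (-0.53), the other cadherins (0.076) and the other catenins and adaptors (0.20) lie to its left.

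Markers of other cell types differed in the same mice, and their part in the junction gene values was not tested. Of 9 fibroblast markers 9 passed an unadjusted p of 0.05 as higher, which 29.5% of the genes tested did, none was at 0, and their summed FPKM was 156 to 185 in the sham-operated mice and 2659, 281 and 2091 in MI replicates 1 to 3. Of 9 macrophage and leukocyte markers 8 passed the filter, Fcgr1 through the MI mice alone, with sums of 156 to 203 against 1060, 189 and 910.2. The 9 mesothelium and epithelium markers had sums of 4.58 to 10.9 against 44.4, 23.6 and 55.5. Of these, Upk1b, Krt19, Krt8 and Krt18 reached an FPKM of 1 in the MI mice alone, so no count of higher genes is read from that list, and Epcam was listed at 0 in every sham-operated mouse. Of 8 endothelial markers 7 had a higher mean in MI and 2 passed an unadjusted p of 0.05 as higher, near the 73% and 29.5% of all genes tested. The MI mice all exceeded the sham-operated mice for Vwf and were all below them for Kdr (sums of 99.3 to 107 against 130, 96.4 and 139), and of 7 smooth muscle and pericyte markers 6 passed, 5 of these had a higher mean and 2 passed an unadjusted p of 0.05 as higher, again near those shares (sums of 211 to 251 against 344, 215 and 382). Of 8 epidermis markers 1 passed the filter, Krt14, through the MI mice alone (it was listed at 0 in the 4 sham-operated mice), and Krt5 and Krt1 were listed at 0 in every mouse (sums of 0.755 to 0.963 against 3.93, 2.26 and 4.15).

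The genes whose profile over the 7 mice was nearest to each member were found by the root mean square difference of log2(FPKM + 1) from the sham mean. No tested gene lay within 0.1 of Gja1, and the nearest were G0s2 (0.20) and Gm13194 (0.25). G0s2 also had its highest sham level in sham replicate 1, at 55.1 FPKM against 34.3 to 40.3 in the other sham-operated mice, and was at 22.8, 23.3 and 30.4 in the MI mice. Within 0.1 of Dsg2 lay 34 genes, with Pygm (0.055) and Vwa8 (0.059) nearest, and within 0.1 of Dsc2 lay 41, with ENSMUSG00000120028 (0.053) and Nr0b2 (0.055) nearest. Ctnna3 had 81 such genes (Zfp612 0.045, Lsmem1 0.049), Jup 212 (Rnf187 0.042, Kdm6b 0.046), Pkp2 237 (Slmap 0.040, Gm49338 0.043), Dsp 270 (Lmtk2 0.024, Hipk3 0.031) and Cdh2 313 (Psmd12 0.032, Slc41a1 0.033). Gjc1 had 1011 (Rtf2 0.027, Nol12 0.027) and Tjp1 1197 (Crot 0.024, Swsap1 0.027). By this measure Gja1 had the fewest close profiles of the 10 genes and Tjp1 the most. The measure is an absolute distance, so the counts depend on how far a gene moved as well as on its shape. Gja1 ranged from -1.08 (MI replicate 1) to 0.71 (sham replicate 1) around the sham mean, and Tjp1 from -0.026 to 0.30.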

How the data were processed

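Total RNA libraries of myocardial tissue from 7 mice were grouped by the treatment in the sample labels. FPKM values, that is fragments relative to gene length and library size, were deposited by the authors for 56980 genes, 1 column per mouse, with 0 columns left unused here. The submitters' processing notes name CASAVA 1.8, HISAT2, SAMtools 1.3.1, edgeR and build mm10, with no role or order. The counting program, annotation and strand setting are not given in the sources used here. Gene symbols came from GENCODE M21 on GRCm38 and matched 52125 identifiers (91.5%). For each gene a length of 20 to 120000 bases was sought that made the values whole fragments (within 0.05) in all mice. One was found for 30503 of 30504 genes above 0, and for 11726 it was the exon length of GENCODE M21. The other lengths were chosen to fit, so finding one is no check of it. The lengths found differed from GENCODE M21 for all 10 junction genes (11608 against 10257 bases for Gja1). Such a gap scales the levels of genes against each other and, through the added 1, also moves differences on the log2(FPKM + 1) scale. Intervals over mice cover counting error together with the spread between animals.

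MI was compared with sham on log2(FPKM + 1), without covariates, for genes that reached an FPKM of 1 in 3 or more mice, by limma 3.58.1 (lmFit, eBayes with trend) in R 4.3.3. P-values were two-sided and adjusted by the Benjamini-Hochberg method over all 11431 genes. Pairs of genes were compared by exact permutation over the 35 splits of the mice. Permutation tests ran in SciPy 1.17.1, tables in pandas 2.3.3 with NumPy 2.4.6, and plots in matplotlib 3.10.9, all under Python 3.11.15. The fit was tested on simulated data.

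All 10 junction genes are named, and from each other junction list the 2 highest in sham mice, up to 2 with the largest absolute difference among genes that passed the filter, and the partners in pairs. For each junction gene the 2 nearest profiles are named. Not every gene under this rule is included here. The members, lists and tests were chosen with earlier results of these data known. Alternatives were another offset, no filter or a filter on the mean, 5 scalings, 3 limma settings, a replicate block and each mouse left out.

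Promoter sequences were read from RefSeq for 5 members. Sequence from chromosome 18 was not used here.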

Additional observations from a re-analysis of the deposited data

Results flagged for a closer look

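In 3 of 16 sets of 4 sham values, 1 mouse stood apart from the others, with a gap to its nearest neighbour above Dixon's 95% critical value when divided by the whole range. Chance gives such a gap in about 1 in 20 sets. Among all genes tested, 665 (5.82%) had one. For Gja1 the ratio was 0.868, since sham replicate 1 was at 43.0 FPKM and the next at 23.0. For Gjc1 minus Gja1 it was 0.895, again through sham replicate 1, at -3.25 where the others were -2.39 to -2.29. For Pkp4 minus Pkp2 it was 0.838, with sham replicate 4 at -1.21 and the others at -1.51 to -1.46.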

How the results depend on the processing

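Differences of single genes changed sign as follows, and the cause was not tested. Cdh2 was at 0.0051 with TPM and 0.34 with the cardiomyocyte scaling, where Dsp was at 0.33. Jup was at -0.15 with quantile normalization, -0.19 under the median log-ratio, -0.063 with mitochondrial genes left out, and between -0.020 (without MI replicate 3) and 0.16 with 1 mouse left out. Tjp1 was at -0.060 with quantile normalization and -0.047 under the median log-ratio. At an adjusted p under 0.05, 4 junction genes were higher and 5 lower with limma's sample weights (66.8% and 20.3% of all genes tested), whose estimation stopped before convergence and gave MI replicate 3 a weight of 437 against 0.091 and 0.022. Leaving out MI replicate 2 gave 3 higher and 5 lower (57% and 14.7% of all genes tested). Leaving out any other 1 mouse gave 0, where 0 to 4 of all genes tested passed as higher and 0 to 1 as lower. The other settings gave 0, voom weights on the recovered fragments included. Junction genes with every MI mouse above every sham-operated mouse numbered 0 with quantile normalization, median log-ratio scaling or mitochondrial genes left out (11%, 13.7% and 16.7% of genes tested). With 1 mouse left out they numbered 2 to 3, the highest without MI replicate 2 (61.9%). Those below numbered 1 with TPM (5.57%), 0 with the cardiomyocyte scaling (1.42%) and 2 to 5 with 1 mouse left out. Gja1 joined without sham replicate 4 (11.1%) or MI replicate 3 (10.4%), and Dsp, Dsg2 and Ctnna3 without MI replicate 2 (16.9%). With 1 mouse left out, Pkp4 minus Pkp2 ranged from -0.20 to 0.014 and Dsc2 minus Dsg2 from -0.038 to 0.34. Same-numbered mice did not deviate together (correlations 0.074, -0.016 and -0.080 for numbers 1 to 3), so the numbers were not taken as pairs. The replicate block leaves sham replicate 4 without a partner, so its differences are those without that mouse. In this fit 0 junction genes and 0 of all genes tested passed. Dsc2 (-0.57) had the smallest adjusted p of the junction genes, 0.24, and was the 1 at an unadjusted p under 0.05. In a sign-change test of the pairs, chosen after seeing the data, Gjc1 minus Gja1 was 1.15 and Cdh11 minus Cdh2 1.78 (exact p 0.25 each, the smallest possible). Depth limited Ctnna3 and Gjc1 most, at 287 and 413 fragments in their lowest mouse.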
